A study of Mus musculus with 16 samples.

Results

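The Toll-like receptors Tlr1, Tlr2, Tlr3, Tlr4, Tlr6, Tlr7, Tlr8 and Tlr9, together with the LPS co-receptors Cd14 and Ly96, were followed over a time course of lipopolysaccharide (LPS) stimulation. The 10 genes were taken by symbol from a deposited table of 13832 genes, and all 10 were present in it. A low-count filter kept the 9529 genes that reached 10 counts in no fewer than 4 input and 4 footprint libraries, out of 8 each. Tlr1, Tlr2, Tlr4, Tlr6, Tlr7, Tlr9, Cd14 and Ly96 passed it and were tested, whereas Tlr3 and Tlr8 did not pass.

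The cells were RAW264.7, an established mouse macrophage-like line, either untreated (0 min) or given 100 ng/ml LPS from E. coli O111:B4 for 15, 30, 45, 60, 75 or 90 min or for 16 h. From each lysate about 10% was kept as input, fragmented cytoplasmic RNA, and the remainder was digested with RNase I to give ribosome-protected fragments, called footprints below. There was 1 library per material and time point, 16 in all, and untreated cells were taken at 0 min alone, which means that time in culture and LPS cannot be told apart. All libraries came from 1 cell line with no named replicate cultures.

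Toll-like receptors are membrane proteins that bind microbial molecules and signal through adaptors to NF-kappa B and interferon regulatory factors. Tlr4 recognises LPS at the cell surface together with Ly96 (also called MD-2), to which Cd14 delivers the ligand. Tlr2 pairs with Tlr1 or Tlr6 to bind bacterial lipopeptides, and Tlr3, Tlr7, Tlr8 and Tlr9 reside in endosomes, where they meet nucleic acids.

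Every library summed to 6702930 to 6702932 counts, so the totals carry no information on the original depth. All 8 macrophage markers examined were present, with a summed count of 16218 to 30324 per library. The lymphocyte markers Cd3e, Cd3g and Ms4a1, the fibroblast markers Col1a1, Col1a2 and Pdgfra, and the epithelial markers Epcam and Krt18 had no row in the table used here. The osteoclast markers summed to 103 counts in untreated input and 295 at 16 h, mostly from Dcstamp, with no row for Calcr; their part in the 16 h values was not tested. Fewer cells expressing a gene and less RNA per cell cannot be told apart in such bulk libraries.

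Counts of Tlr1 and Tlr6 have to be read with their sequences in view, since these receptors are close copies. Their genes lie on the minus strand of chromosome 5 (GRCm38, GENCODE annotation), Tlr1 at chr5:64924679-64933563 and Tlr6 at chr5:64952031-64960097, 18.5 kb apart with no gene between them. Of the 30-base words in the coding sequence, 612 were identical between them, 26.0% of those of Tlr1 and 25.6% of those of Tlr6, and the longest identical run was 229 bases. The stretch below covers coding bases 1637 to 1726 of Tlr1 and 1676 to 1765 of Tlr6, where the identical run ends. It is shown because it contains a single difference, marked by the capital.
Tlr1: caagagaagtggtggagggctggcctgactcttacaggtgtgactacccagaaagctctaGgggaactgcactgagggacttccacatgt
Tlr6: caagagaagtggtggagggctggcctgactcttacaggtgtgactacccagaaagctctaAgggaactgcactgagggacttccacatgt
Footprint-sized reads from such stretches cannot be assigned to 1 of the genes, and the sources used here do not say how the authors treated them, so values of Tlr1 and Tlr6 are uncertain to that extent. The other 8 members shared no coding 30-base word with any other gene.

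Promoter sequence was available from RefSeq (GRCm38.p6) for 6 of the 10 members, as windows from 250 bases before to 50 after a start site. The motifs searched on both strands were a strict kappa B decamer, a loose kappa B form (GGG and CC with any 5 bases between them, which the strict form also matches), the core of the interferon-stimulated response element (GAAA, any 2 bases, GAAA), AP-1 (TGANTCA) and the PU.1 core (GAGGAA). Among the 32851 mouse windows searched they occurred in 0.155%, 50.8%, 3.44%, 7.81% and 28.3%. The stretches below are shown because Tlr2 and Tlr9 rose and Tlr6 fell in the first 90 min, and the motif marked in each was chosen by hand. Whether these motifs bear on the changes was not tested. The capitals mark the loose kappa B matches in Tlr2 (chr3:83841768-83841821, minus strand), the AP-1 match in Tlr9 (chr9:106222500-106222586, plus strand) and overlapping matches to the interferon-stimulated core in Tlr6 (chr5:64959227-64959322, minus strand, inside the annotated gene but outside its exons).
Tlr2: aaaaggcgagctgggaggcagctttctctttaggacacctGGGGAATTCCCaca
Tlr9: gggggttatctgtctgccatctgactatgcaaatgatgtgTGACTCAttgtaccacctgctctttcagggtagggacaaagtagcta
Tlr6: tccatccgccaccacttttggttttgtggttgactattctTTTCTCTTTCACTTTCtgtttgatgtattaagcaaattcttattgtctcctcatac
None of the members' windows held the strict kappa B decamer. Loose kappa B matches were also found nearer the start in the Tlr2 window, in the window of Tlr3 and in a further window of Tlr6. The PU.1 core was matched in windows of Tlr1, Tlr8 and Tlr9. These are matches of letters and not binding sites.

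Over the first 90 min, Tlr2, Cd14 and Tlr9 rose in both materials, Tlr6 fell in both, and Tlr4 dipped and then rose. Tlr1, Tlr7 and Ly96 did not pass the test in either material. A gene was called when the adjusted p of edgeR's quasi-likelihood test of a smooth time curve was under 0.05 over all 9529 genes. Sizes are log2 values, read where the fitted curve departs most from where it starts. In input, 5 of the 8 tested members were called, 3 of them higher, against 27.1% of all tested genes called, 15.2% higher and 11.9% lower. In footprints the same 5 were called, against 21.8% of tested genes, 12.7% higher and 9.13% lower. The median member change was -0.20 in input and -0.26 in footprints, beside -0.04 and -0.07 over all tested genes.

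At 16 h the set of members that differed from untreated cells was another one. Tlr1, Tlr9, Cd14 and Ly96 were higher in both materials, Tlr6 was higher in input, and Tlr7 was lower in both. In input, 6 of 8 tested members were called, 5 higher and 1 lower, against 55.3% of all tested genes, 28.3% higher and 27% lower. In footprints 5 were called, 4 higher and 1 lower, against 50.6% of tested genes, 26% higher and 24.6% lower. The median member change was 0.79 in input and 0.66 in footprints, beside 0.01 and 0.00 over all tested genes. The single 16 h library of each material was assumed to vary like the others.

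**Figure D1:**
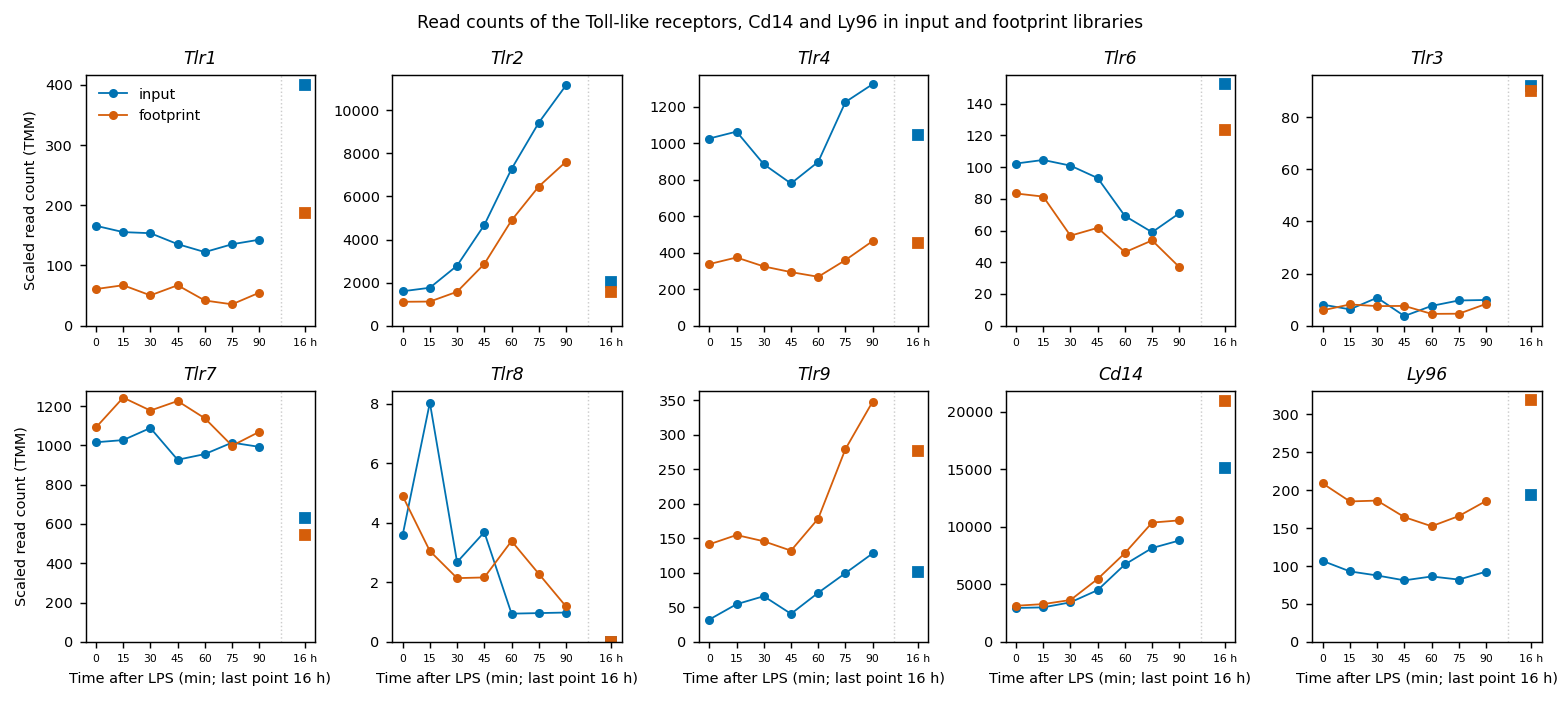
Read counts of the 10 genes after TMM scaling (vertical axes, linear from 0, a separate scale per gene) against time after LPS (min, with 16 h at the right as squares), in input (blue) and footprints (orange), 1 library per point. Tlr2 climbs to 90 min and is near its starting level at 16 h, Cd14 keeps climbing, and Tlr3 stands out only at 16 h; at 16 h the Tlr8 points of both materials lie on 0.

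Tlr2, the lipopeptide receptor (chr3:83836272-83841767, minus strand, with its whole coding sequence in 1 exon), had the largest early rise of the members. Its input counts at 0, 15, 30, 45, 60, 75 and 90 min and 16 h were 1780, 1970, 3117, 5071, 7678, 9753, 11327 and 2150. Its footprint counts at the same times were 1129, 1099, 1470, 2646, 4328, 5647, 6390 and 1478. Counts were above the untreated library from 30 min on in both materials, climbed at each step from 15 to 90 min, and at 16 h had come back to between the 15 and 45 min values. Scaled by TMM, the 90 min library was 6.99-fold above untreated in input (95% exact conditional interval for counting error only, as for all ratios here, 6.65 to 7.35) and 6.87-fold in footprints (6.45 to 7.33). The fitted excursion was 3.11 ± 0.21 (SE) in input (adjusted p = 0.00084, edgeR) against 3.20 ± 0.30 for footprints (adjusted p = 0.0045). These exceed the log2 ratios of the single libraries, 2.80 and 2.78. At 15 min the fitted curve lay at 0.60 in input, where the libraries differed by 0.14.

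At 16 h Tlr2 was 1.28-fold above the untreated library in input (1.20 to 1.36) and 1.41-fold in footprints (1.31 to 1.53). Against the fitted value at 0 min the differences were 0.63 ± 0.25 (adjusted p = 0.078) and 0.73 ± 0.35 (adjusted p = 0.14), neither past the threshold. Both were called without the robust estimate of the spread (adjusted p = 0.013 and 0.025) and with a cubic curve (0.47, adjusted p = 0.00044, and 0.52, adjusted p = 0.00061), and also without the 0 min library (0.33, adjusted p = 0.0066, and 0.60, adjusted p = 0.0055). The call for Tlr2 at 16 h thus changes with the model and with the 0 min library.

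Tlr1 and Tlr6 are the partners of Tlr2, and neither was called higher in the first 90 min. Tlr1 input counts in time order were 185, 174, 172, 147, 129, 140, 145 and 421, and its footprint counts were 62, 66, 47, 62, 37, 31, 46 and 177. The counts between 15 and 90 min were at or below the untreated one except for footprints at 15 min, and the 16 h library was the highest in both materials. The early change of Tlr1 was not called (-0.35 ± 0.13, adjusted p = 0.15 in input; -0.52 ± 0.30, adjusted p = 0.39 in footprints). At 16 h Tlr1 was 2.40-fold higher in input (2.02 to 2.87) and 3.08-fold in footprints (2.29 to 4.18). The fitted differences were 1.31 ± 0.14 (adjusted p = 2.7e-06) and 1.52 ± 0.28 (adjusted p = 0.00023).

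Tlr6 input counts were 114, 117, 113, 101, 73, 61, 72 and 161, and its footprint counts were 85, 80, 53, 57, 41, 47, 31 and 117. In input the 60, 75 and 90 min libraries lay below all earlier ones, and the 16 h library of each material lay above all others. The 90 min library was 1.44-fold below untreated in input (ratio 0.694, 0.509 to 0.940) and 2.26-fold below in footprints (ratio 0.443, 0.284 to 0.675). The fitted falls were -0.83 ± 0.21 (adjusted p = 0.022) and -1.08 ± 0.25 (adjusted p = 0.013). The log2 ratios of the 90 min libraries were -0.53 in input, less than the fitted fall, and -1.17 in footprints. With DESeq2 neither fall passed (adjusted p = 0.11 and 0.094). The call was also lost in input without the 15 min (0.069) or 75 min library (0.094), and in footprints without the 0 min (0.070), 15 min (0.056) or 90 min library (0.072). At 16 h Tlr6 was 1.49-fold higher in input (1.17 to 1.91; fitted 0.58 ± 0.21, adjusted p = 0.028) and 1.48-fold in footprints (1.11 to 1.99; fitted 0.55 ± 0.24, adjusted p = 0.066). The input call was lost with DESeq2 (adjusted p = 0.16) and with scaling by total counts (adjusted p = 0.10), and the footprint difference was called without the 0 min library (0.69, adjusted p = 0.034).

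Counted per 1000 codons, footprints of Tlr2 were 7.85 times those of Tlr1 and Tlr6 together in untreated cells, 84.6 times at 90 min and 5.13 times at 16 h. In input the same ratio was 6.07, 53.2 and 3.76. These are ratios of levels in single libraries, and those in input include reads from untranslated regions if these were counted.

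Tlr4, the LPS receptor itself (chr4:66827584-66930284, plus strand, 3 coding exons), moved little. In input its counts were 1143, 1190, 990, 845, 947, 1268, 1343 and 1102, and its footprint counts were 344, 367, 303, 271, 237, 314, 389 and 426. Input was lowest at 45 min and highest at 90 min, and footprints were lowest at 60 min. The 45 min input library was 1.32-fold below untreated (ratio 0.760, 0.694 to 0.831), and the 90 min library was 1.29-fold above (1.19 to 1.40). The fitted curve was called in both materials (adjusted p = 0.014 in input and 0.042 in footprints). It ran through -0.32 ± 0.13 at 45 min to 0.31 at 90 min in input, and through -0.35 ± 0.15 to 0.21 in footprints.

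Since the dip and the rise of Tlr4 were of like size, the sign of its largest excursion depends on the curve and on the libraries used: a linear term gave 0.31 in input and 0.22 in footprints. The input call was lost without the 30 min (adjusted p = 0.073) or 90 min library (0.092), and the footprint call without the 45 min (0.14), 75 min (0.087) or 90 min library (0.49), with DESeq2 (0.094) and without the robust spread (0.064). At 16 h the Tlr4 differences were 0.01 ± 0.15 for input (adjusted p = 0.96) and 0.26 ± 0.18 for footprints (adjusted p = 0.24). The 16 h footprint library held 1.34 times the untreated value (1.16 to 1.54), and with a cubic curve the footprint difference was called (0.39, adjusted p = 0.033).

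Cd14, a lipid-anchored protein that collects LPS for Tlr4 (chr18:36725067-36726798, minus strand, 2 coding exons), was the most abundant member per codon in footprints at all 8 time points. Its input counts were 3282, 3353, 3844, 4880, 7100, 8440, 8943 and 15967, and its footprint counts were 3197, 3224, 3396, 5051, 6832, 9060, 8864 and 19794. Every later library exceeded the untreated one in both materials, and the 16 h library was the highest. At 90 min Cd14 was 2.99-fold up in input (2.87 to 3.12) and 3.37-fold in footprints (3.23 to 3.51). At 16 h it was 5.14-fold up (4.95 to 5.34) and 6.67-fold (6.43 to 6.93). The fitted early rises were 1.82 ± 0.15 (adjusted p = 0.00042) and 2.06 ± 0.19 (adjusted p = 0.001), and the 16 h differences were 2.56 ± 0.18 (adjusted p = 1.1e-05) and 2.88 ± 0.22 (adjusted p = 3.9e-05). These fitted sizes exceed the log2 ratios of the single libraries, 1.58 and 1.75 at 90 min and 2.36 and 2.74 at 16 h.

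Ly96, the small secreted protein that forms the LPS pocket with Tlr4 (chr1:16688051-16709611, plus strand, 5 coding exons), did not share the early rise of Cd14. Input libraries held 119, 104, 98, 88, 91, 85, 94 and 204 counts of Ly96, and its footprint counts were 213, 182, 174, 152, 135, 145, 156 and 302. All libraries from 15 to 90 min lay below the untreated one in both materials, and the 16 h library lay above all others. The early change was not called (-0.36 ± 0.16, adjusted p = 0.23 in input; -0.39 ± 0.15, adjusted p = 0.16 in footprints). At 16 h Ly96 was 1.81-fold higher in input (1.44 to 2.29; fitted 0.95 ± 0.16, adjusted p = 2e-04) and 1.53-fold in footprints (1.28 to 1.83; fitted 0.59 ± 0.16, adjusted p = 0.0051).

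Relative to Tlr4, footprints per 1000 codons of Cd14 were 21.2-fold higher in untreated cells, 52.0-fold at 90 min and 106-fold at 16 h. For Ly96 the ratio to Tlr4 was 3.23, 2.09 and 3.70 at those times.

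Tlr9, the receptor for unmethylated CpG DNA (chr9:106222598-106226883, plus strand, 2 coding exons), rose in both materials. Counts of Tlr9 in input were low, 36, 61, 74, 44, 75, 103, 130 and 106, whereas its footprint counts were 144, 152, 136, 122, 158, 244, 292 and 261. In footprints the 75 min, 90 min and 16 h libraries lay above all others; in input every later library lay above the untreated one. At 90 min Tlr9 was 3.97-fold up in input (2.72 to 5.91) and 2.46-fold in footprints (2.01 to 3.03). The fitted rises were 1.61 ± 0.31 (adjusted p = 0.0043) and 1.26 ± 0.17 (adjusted p = 2.7e-05). Without the 90 min library the input rise missed the threshold (adjusted p = 0.088). At 16 h Tlr9 was 3.11-fold up in input (2.11 to 4.68; fitted 1.38 ± 0.36, adjusted p = 0.0057) and 1.95-fold in footprints (1.59 to 2.41; fitted 0.88 ± 0.19, adjusted p = 0.0011).

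Tlr7, which senses single-stranded RNA (chrX:167304929-167330558, minus strand, 2 coding exons), was the one tested member that was lower at 16 h. Its input counts were 1132, 1149, 1218, 1005, 1008, 1049, 1007 and 662, and its footprint counts were 1112, 1221, 1099, 1132, 1007, 872, 897 and 512. From 0 to 90 min the input counts ran from 1005 to 1218 and the footprint counts from 872 to 1221, and the 16 h library was the lowest in both materials. The early change was not called (-0.09 ± 0.09, adjusted p = 0.70 in input; -0.18 ± 0.10, adjusted p = 0.22 in footprints). At 16 h Tlr7 was 1.62-fold below untreated in input (ratio 0.618, 0.561 to 0.681) and 2.01-fold below in footprints (ratio 0.496, 0.446 to 0.552). The fitted differences were -0.65 ± 0.11 (adjusted p = 0.00018) and -1.06 ± 0.12 (adjusted p = 3.1e-06). Between Tlr7 and Tlr9 the footprint level per 1000 codons differed 7.59-fold in untreated cells, 3.02-fold at 90 min and 1.93-fold at 16 h, with Tlr7 the higher throughout.

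Tlr3, the receptor for double-stranded RNA (chr8:45395665-45411080, minus strand, 4 coding exons), was near the limit of detection until 16 h. In input Tlr3 had counts of 9, 7, 12, 4, 8, 10, 10 and 97, and its footprint counts were 6, 8, 7, 7, 4, 4, 7 and 85. The 16 h library of each material stood far above the other 7. From 15 to 90 min the counting interval of every ratio to 0 min included equality. The 16 h ratio to untreated was 11.4 in input (5.76 to 25.7) and 15.3 in footprints (6.73 to 42.8). Tlr3 did not pass the count filter; in a fit with no filter the 16 h differences were 3.56 ± 0.50 (adjusted p = 3.1e-07) and 3.63 ± 0.52 (adjusted p = 2.8e-07). The gene Gm45542 overlaps Tlr3 in the annotation, and the sources used here do not say whether strand was used in counting, so reads of the overlap cannot be told apart.

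Tlr8, a further endosomal receptor (chrX:167242696-167264329, minus strand, 2 coding exons), lies 40.6 kb from Tlr7 with no gene between them. Its input counts were 4, 9, 3, 4, 1, 1, 1 and 0, and its footprint counts were 5, 3, 2, 2, 3, 2, 1 and 0. No library held more than 9 counts. A count of 0 allows up to 3. Tlr8 did not pass the count filter either; in the fit with no filter its 16 h term had an adjusted p of 0.043 in input and 0.049 in footprints, but with 0 counts in both 16 h libraries that fit gives no usable size, and no fold is given.

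**Figure D2:**
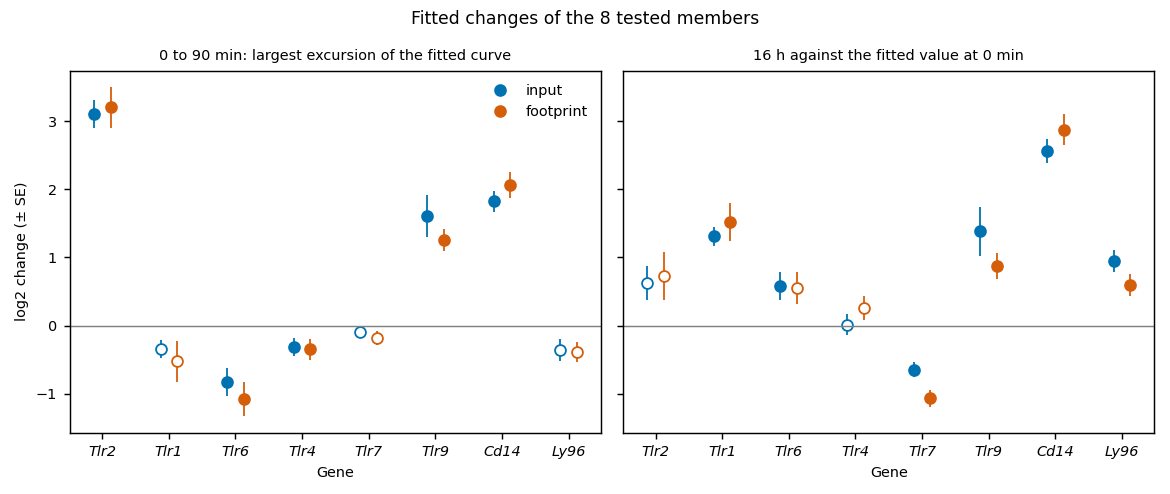
Fitted log2 changes (vertical axis) of the 8 tested genes (horizontal axis) with their standard errors, over 0 to 90 min (left) and at 16 h against the fitted value at 0 min (right), in input (blue) and footprints (orange). Filled points have an adjusted p under 0.05 and open points do not; Tlr2, Tlr9 and Cd14 lie above 0 on the left with filled points, and Tlr7 alone lies below 0 with filled points on the right.

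Ribosome density, the ratio of scaled footprints to scaled input, showed no called change in any tested member. Over 0 to 90 min 0 of 8 were called by edgeR, against 1.28% of all tested genes (1.14% higher and 0.136% lower), and 0 had an unadjusted p under 0.05. At 16 h 0 of 8 were called, against 0.504% of tested genes (0.378% higher and 0.126% lower), and 1, Cd14, had an unadjusted p under 0.05 (0.011). DESeq2 called 0 in both comparisons. At the rates seen over all tested genes, a set of 8 would hold few calls or none. Cd14 density was 1.07 in untreated cells (1.01 to 1.12), 1.20 at 90 min (1.16 to 1.23) and 1.38 at 16 h (1.35 to 1.41). The counting intervals for Cd14 at 0 min and 16 h did not overlap, but the fitted difference at 16 h, 0.39 ± 0.14, was not called (adjusted p = 0.29). Tlr7 density at 16 h was 0.863 (0.767 to 0.970), the lowest of its 8 values, which reached 1.32 at 45 min; its fitted difference at 16 h was -0.34 ± 0.17 (adjusted p = 0.50). Tlr9 density was 4.37 in untreated cells (3.02 to 6.49), where its input count was 36, and ran between 2.20 and 3.26 later. The fitted change of Tlr9 density over 0 to 90 min, -0.58 ± 0.30, was not called (adjusted p = 0.75). Tlr2 density was 0.694 in untreated cells (0.643 to 0.748), 0.565 at 30 min (0.531 to 0.602) and 0.767 at 16 h (0.717 to 0.820). Its counting intervals at 0 and 30 min did not overlap. Neither its early nor its 16 h density change was called by edgeR (adjusted p = 0.79 and 0.69).

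The level of density, averaged over the 8 time points and relative to the typical gene, separated the members. It was above the typical gene for Tlr9 (1.49 ± 0.09 on the log2 scale, adjusted p = 2.3e-13), Ly96 (0.94 ± 0.07, adjusted p = 2e-11), Cd14 (0.23 ± 0.05, adjusted p = 7.4e-05) and Tlr7 (0.13 ± 0.05, adjusted p = 0.024). It was below the typical gene for Tlr4 (-1.52 ± 0.06, adjusted p = 9.6e-17), Tlr1 (-1.35 ± 0.09, adjusted p = 5.7e-12), Tlr2 (-0.60 ± 0.05, adjusted p = 4.3e-11) and Tlr6 (-0.48 ± 0.10, adjusted p = 0.00011). All 8 tested members were called, 4 higher and 4 lower, but so were 85% of all tested genes, 43.6% higher and 41.5% lower. The 4 cell surface receptors were the ones below, and the tested endosomal receptors and co-receptors the ones above, except that Tlr7 fell below with scaling by total counts. Among the other endosomal receptors, Tlr13 did not follow this division: its level was -0.21, below the typical gene (adjusted p = 0.00085). Tlr3 and Tlr8 were not among the tested members. In the edgeR fit with no filter their levels were -0.10 ± 0.21 (adjusted p = 0.67) and -0.10 ± 0.54 (adjusted p = 0.88), neither of them called. Among all tested genes the level of Tlr4 stood at percentile 7.21, that of Tlr1 at 9.49, that of Ly96 at 90.2 and that of Tlr9 at 97.7. The densities of Tlr4 ran from 0.293 to 0.431 and those of Tlr1 from 0.262 to 0.495, whereas those of Ly96 ran from 1.65 to 2.13; these ranges did not overlap.

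Without the time-point block 4 of the 8 density levels were called, and those of Tlr2 (adjusted p = 0.34), Tlr6 (0.092), Tlr7 (0.37) and Cd14 (0.55) were not. With scaling by total counts Cd14 lay at 0.01 (adjusted p = 0.79) and Tlr7 at -0.09. Tlr7 was also lost with DESeq2 (0.051) and without the 15 min (0.076), 45 min (0.10) or 60 min libraries (0.071). Density is a description of this preparation, since input reads from untranslated regions enter the ratio if they were counted. Coding sequence made up 61.4% of the annotated Tlr4 transcript, 78.8% of that of Tlr1, 75.9% of that of Ly96 and 89.0% of that of Tlr9. It was 2505 bases long in Tlr4, 2385 in Tlr1, 480 in Ly96 and 3096 in Tlr9. Across 9135 genes the density level had a Spearman correlation of -0.20 with that share and of -0.50 with coding length, given as a description across genes that share the same libraries.

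**Figure D3:**
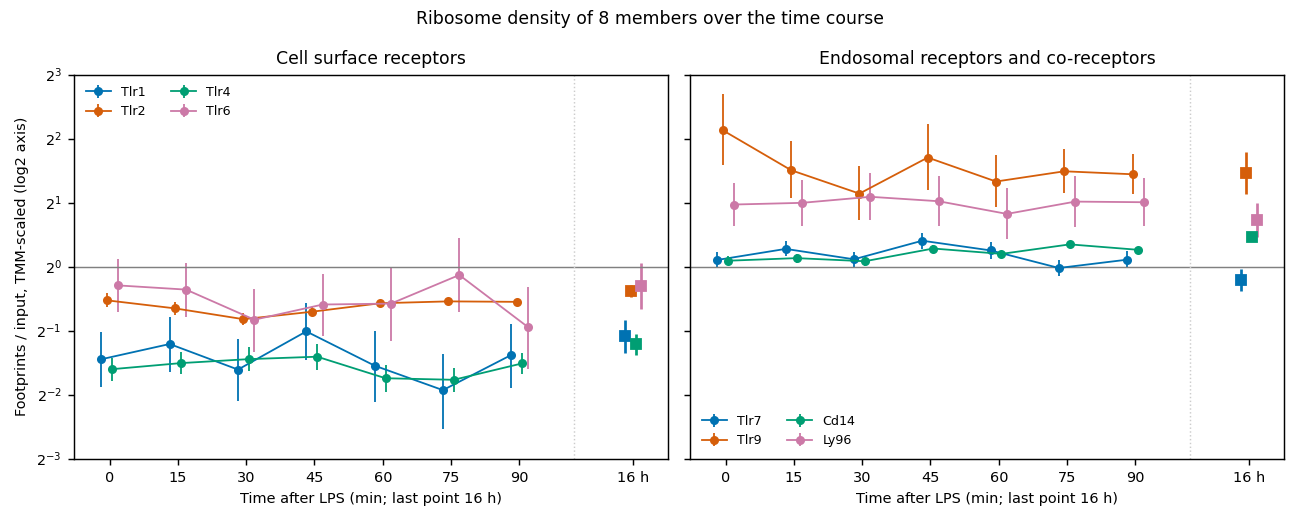
Ribosome density (footprints over input after TMM scaling, log2 axis) against time after LPS (min, with 16 h at the right as squares) for the cell surface receptors (left) and for Tlr7, Tlr9, Cd14 and Ly96 (right). Bars are 95% counting intervals of single libraries, and the grey line marks a ratio of 1; Tlr1 and Tlr4 reach at most 0.495, and Ly96 and Tlr9 lie at 1.65 or above throughout.

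Levels were compared between members per 1000 codons in footprints. In untreated cells the order was Cd14 (8569), Tlr2 (1413), Ly96 (1306), Tlr7 (1039), Tlr4 (404), Tlr9 (137), Tlr6 (103), Tlr1 (76.5), Tlr3 (6.50) and Tlr8 (4.75). The counting intervals of neighbours overlapped for Tlr2 and Ly96, for Tlr9 and Tlr6, for Tlr6 and Tlr1, and for Tlr3 and Tlr8. Cd14 stood 6.07-fold above the next member. At 90 min Tlr2 had reached 9711 and stood 8.36-fold above Ly96, next in order, with Cd14 at 28857. At 16 h Cd14 stood 28.7-fold above the next member, Ly96 and Tlr2 did not differ beyond their intervals (1996 and 1994), and neither did Tlr4 and Tlr7 (540 and 516). In input per 1000 codons of untreated cells, Tlr4 (1228) ranked above Tlr7 (967) and Ly96 (667), and Tlr9 (31.3) ranked below Tlr1 (209) and Tlr6 (127). Reads from untranslated regions enter these input levels if they were counted. Scaled input counts of Tlr4 and Tlr7 were 1025 and 1016, on annotated transcripts of 4077 and 3897 bases. The order of these 2 genes in input thus depends on the length used.

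**Figure D4:**
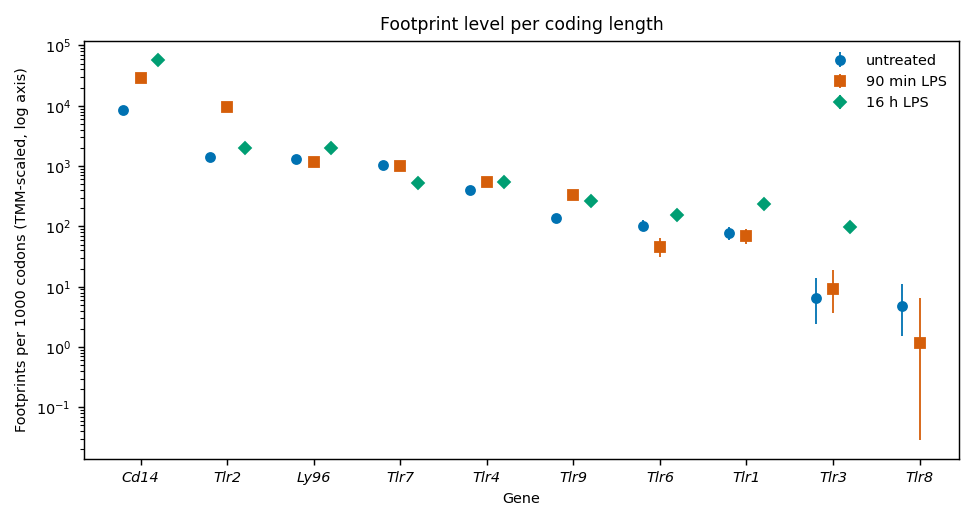
Footprints per 1000 codons after TMM scaling (log axis) of the 10 genes, ordered by their untreated level, in untreated cells (circles), at 90 min (squares) and at 16 h (diamonds), with 95% counting intervals of single libraries. Cd14 is the highest at each time, Tlr2 is next at 90 min, and Tlr3 leaves the bottom of the order only at 16 h; the count of 0 for Tlr8 at 16 h cannot be drawn on this axis.

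The make-up of the receptor reads followed Tlr2. Of all reads on the 8 Toll-like receptors, Tlr2 held 40.4% in untreated input (95% Clopper-Pearson interval 39.0 to 41.9), 80.7% at 90 min (80.04 to 81.36) and 45.8% at 16 h (44.3 to 47.2). In footprints its share was 39.1% (37.3 to 40.9), 79.3% (78.4 to 80.2) and 48.4% (46.6 to 50.2). Tlr7 held 38.5% of untreated receptor footprints (36.7 to 40.3), 11.1% at 90 min (10.5 to 11.8) and 16.8% at 16 h (15.4 to 18.1). The 4 cell surface receptors together held 56.1% of receptor footprints in untreated cells, 85.1% at 90 min and 71.9% at 16 h. With Tlr2 left out that share was 27.9%, 28.0% and 45.6%. In input it was 73.2%, 91.8% and 81.6% with Tlr2, and 54.98%, 57.6% and 66.1% without. The higher share at 90 min was thus nearly all Tlr2, while the one at 16 h was also seen among the other receptors. These are shares of reads, not of molecules, as the receptors differ in length. Tlr13, another endosomal receptor, is not among the 8. It had 440 input and 401 footprint counts in untreated cells, so the cell surface shares would be lower with it counted.

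**Figure D5:**
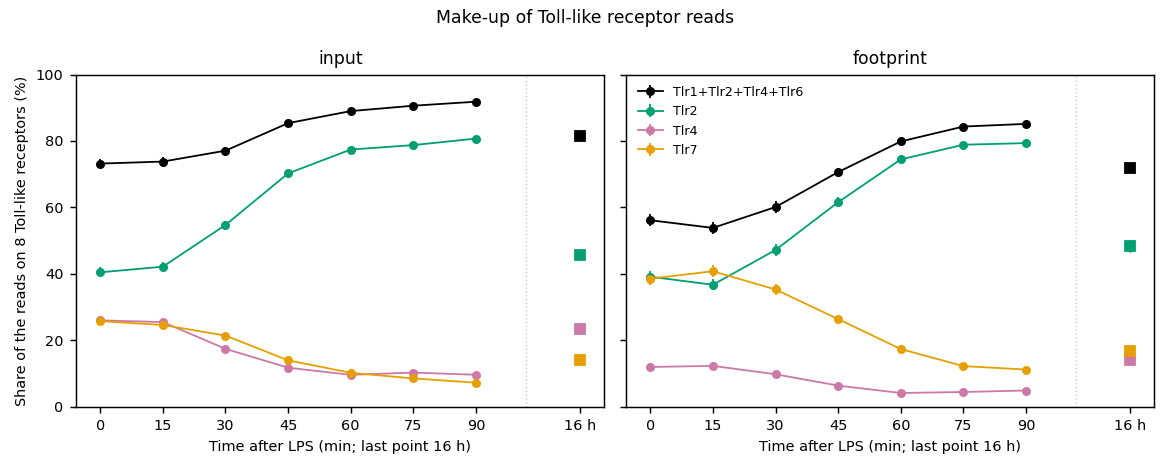
Share of the reads on 8 Toll-like receptors (percent, vertical axis from 0 to 100) held by Tlr2, Tlr4, Tlr7 and the 4 cell surface receptors together, against time after LPS (min, with 16 h at the right as squares), in input (left) and footprints (right). Bars are 95% counting intervals; Tlr2 reaches 80.7% of input and 79.3% of footprint reads at 90 min.

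The genes whose pattern over the 16 libraries was most like each tested member, after centring log2 values within each material, were found by Pearson's r as a description. For Cd14 it was the kinase gene Irak2 (r = 0.990), for Tlr2 the survival gene Mcl1 (0.975), and for Tlr7, after a clone-named gene with no symbol (0.977), Anapc1 (0.970). For Tlr1 it was Znfx1 (0.974), for Ly96 Dtwd1 (0.967), for Tlr9 Ptpn23 (0.961) and for Tlr6 Dscr3 (0.957). Tlr4 had the weakest nearest neighbour, Tut1 (0.868).

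Genes that act with the receptors were described by pathway lists, whose counts stand beside the shares of all tested genes called: 15.2% higher and 11.9% lower early in input, and 28.3% higher and 27% lower at 16 h in input. Of the other Toll-like receptors, 3 of 4 were in the table and only Tlr13, a sensor of bacterial ribosomal RNA, was tested; it fell early in input (-0.41 ± 0.11, adjusted p = 0.040) and footprints (-0.75 ± 0.12, adjusted p = 0.001) and was not called at 16 h. Of 8 tested accessory and ligand-binding genes, 1 rose and 1 fell early in input, and 4 were higher and 2 lower at 16 h. The scavenger receptor gene Cd36, a Tlr2 co-receptor, was 4.83 ± 0.21 higher at 16 h in input and Nrros, a leucine-rich repeat protein, fell early by 1.43 ± 0.10. Hmgb1 was -1.46 ± 0.11 at 16 h. Of 11 chaperones and trafficking genes, 2 rose and 2 fell early in input, and 7 were higher and 2 lower at 16 h. Unc93b1, which carries the endosomal receptors out of the endoplasmic reticulum, was 0.70 ± 0.09 higher at 16 h in input (adjusted p = 8.9e-06). Cnpy3, a folding factor of the receptors, was -1.21 ± 0.13 at 16 h, whereas Rab11a was 1.15 ± 0.10. Early in input Cnpy4 fell by 0.71 ± 0.20 and Lrrc59 rose by 0.38 ± 0.07. Of 4 tested endolysosomal proteases, which trim the endosomal receptors, 1 rose early in input, and at 16 h 2 were higher, with Ctsl at 2.21 ± 0.09 and Ctsb at 1.49 ± 0.08, and 1 was lower, Lgmn at -0.90 ± 0.08.

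Of 4 tested receptor-proximal adaptors, 2 rose early in input and stayed higher at 16 h. They were Ticam1, the adaptor of Tlr3 and of internalised Tlr4 (3.34 ± 0.31 early), and Pik3ap1 (0.81 ± 0.16). Myd88, the adaptor of all 8 receptors but Tlr3, was at 0.28 ± 0.09 early in input and was not called (adjusted p = 0.061). Of 16 kinases and ubiquitin ligases, 9 rose and 0 fell early in input, among them Ikbke (2.73 ± 0.21), Irak2 (2.51 ± 0.18) and Peli1 (2.11 ± 0.14), and 8 were higher and 3 lower at 16 h, the lowest being Tab1 at -0.98 ± 0.20. Of 5 brakes on the receptors, 3 rose early in input and 3 were higher at 16 h, with the inhibitory kinase homologue Irak3 at 2.35 ± 0.16, Il1rl1 at 1.04 ± 0.17 and Tollip at 0.86 ± 0.16. The median early change in input was 0.55 for the adaptors, 0.35 for the kinases and ligases, 0.54 for the brakes, 0.16 for the chaperones, -0.01 for the proteases and -0.12 for the accessory genes, beside -0.04 over all tested genes. In footprints 12.7% of all tested genes were called higher and 9.13% lower early, and 26% and 24.6% at 16 h. There, early and then at 16 h, the counts higher and lower were 1 and 1 then 5 and 3 for accessory genes, 1 and 1 then 4 and 2 for chaperones, 0 and 0 then 2 and 1 for proteases. They were 2 and 0 then 2 and 0 for adaptors, 3 and 0 then 6 and 1 for kinases and ligases, and 3 and 0 then 3 and 0 for brakes. No gene of these lists was called for a change in density, where 1.28% of all tested genes were called early and 0.504% at 16 h, so lists of this size would hold few calls or none at those rates.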

How the data were processed

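The authors deposited 1 table with whole-number read counts per gene for 16 libraries and, per the file headers, a DESeq2-normalised signal for each, which equalled the counts divided by 1 factor per library and was used only to recompute the shares of receptor reads, which were taken from the counts. The submitters' processing notes name Bowtie 0.12.8, DESeq2 1.18.1 and mm10. For the features counted, strand, reads with several matches and the step that made the totals equal, the method was not given in the sources used here.

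Counts were fitted with edgeR 4.0.16 (R 4.3.3, TMM scaling, quasi-likelihood F-test, Benjamini-Hochberg adjustment over 9529 genes, threshold 0.05). Input and footprints were each fitted with linear and quadratic minutes and a term for 16 h (4 residual degrees of freedom), density in a model over 16 libraries with time point as a block (4, and 7 for the level). The error is the scatter of single libraries about these curves and may be technical. The robust spread estimate was adopted after fits with and without it had been seen, because it matched earlier work on this table. The fit was tested on simulated counts with early changes linear in minutes and the same spread for all genes. That cannot show how it treats curves of other shapes. Ratios between single libraries carry exact conditional intervals of 95%. Shares carry Clopper-Pearson intervals. Alternatives were other scalings, DESeq2 1.42.0, no count filter, other time curves, no block, and each time point left out; leaving out robust and the unfiltered values of Tlr3 and Tlr8 were added after seeing the data.

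All 10 members were named. From each pathway list the largest rise and fall at 16 h in input and those called early in input were eligible, up to 4; Unc93b1 and Myd88 were added after their values were seen. For each tested member the most similar gene of 3 ranked was named. Members and lists were chosen with earlier results of these data known.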

Additional observations from a re-analysis of the deposited data

How the results depend on the processing

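Of 872 recomputed values of the members, 792 kept their direction and side of the threshold, 28 lost the call, 13 gained it and 39 changed sign. Equal totals, 1 library per time point and low counts of Tlr3, Tlr8, Tlr6 and Tlr9 limit precision. The labels number no replicates; pairing enters only as the time-point block of the density models, since input and footprints of a time point share a lysate.

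The number of members called over 0 to 90 min (5 in each material) ran from 3 to 5 in input and from 3 to 5 in footprints with a time point left out, lowest without 90 min, and was 3 with DESeq2 in footprints. At 16 h it ran from 6 to 7 in input and from 5 to 7 in footprints with a time point left out. The number of density levels called, 8, fell to 4 without the time-point block and ran from 7 to 8 with a time point left out. Scaling by total counts moved the median of all genes from -0.04 to -0.17 in input early, from -0.07 to -0.32 in footprints early, from 0.01 to -0.16 in input at 16 h, from -0.05 to -0.20 in density early and from 0.02 to -0.19 in density level. Higher calls among all genes then numbered 1007 of 2998 in place of 1448 of 2579 in input early, 723 of 3541 in place of 1207 of 2077 in footprints early, 2107 of 5483 in place of 2692 of 5269 in input at 16 h, 93 of 148 in place of 109 of 122 in density early and 3056 of 7856 in place of 4150 of 8101 in density level. With it Tlr1 was called lower early in input (-0.45, adjusted p = 0.048) and Tlr7 (-0.43, 0.0073) and Ly96 (-0.57, 0.015) early in footprints. Causes of these changes were not tested.

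The following values changed sign; where a value at the other end of the range with a time point left out kept its sign, it is given in brackets. The early excursion of Tlr4 in input was 0.31 with a linear term, 0.36 with a cubic curve, 0.43 without 0 min, 0.42 without 15 min, 0.31 without 45 min and 0.33 without 60 min (-0.38 without 90 min). In footprints Tlr4 was 0.22 with a linear term, 0.46 with a cubic curve, 0.33 without 15 min and 0.27 without 60 min, and Tlr7 was 0.16 with the square root of time, 0.18 with a cubic curve and 0.16 without 90 min (-0.30 without 0 min). Tlr4 in input at 16 h was -0.15 with total counts, -0.0067 with no filter, -0.0065 without 75 min and -0.035 without 90 min (0.10 without 15 min). The uncalled early density change of Tlr7 was -0.21 with total counts, -0.096 with DESeq2 size factors, -0.096 with DESeq2, -0.093 with a linear term, -0.15 without 0 min and -0.096 without 45 min. That of Tlr2 was 0.094 with a linear term and 0.26 without 0 min, and that of Tlr9 was 0.11 without 0 min (-0.73 without 45 min). For Tlr4 it was 0.096 with the square root of time, 0.21 with a cubic curve, 0.077 without 60 min and 0.035 without 75 min. For Ly96 it was 0.036 with the square root of time, 0.086 with a cubic curve and 0.080 without 60 min (-0.066 without 0 min), and for Tlr1 0.22 with a cubic curve and 0.091 without 75 min (-0.39 without 90 min). Tlr6 density at 16 h was -0.017 with the square root of time, -0.096 with a cubic curve and -0.073 without 90 min. The Tlr7 density level was -0.087 with total counts.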
